A study of Mus musculus with 8 samples.

Results

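Scx, Mkx, Tnmd, Thbs4 and Tnc are 5 genes used as markers of tendon and ligament cells. They were taken by symbol from a table of 18501 genes measured in cultured mouse rib chondrocytes. All 5 were found once in the table, and all 5 passed the filter on low counts, which left 14359 genes. The list is one of names, with no threshold on a measured value.

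The 8 libraries come from CD1 mice aged 10 days that carry an altered gene for miR-140, a microRNA abundant in cartilage, or are wild type. CG mutants have a mutated seed region of the 3p arm, and CT mutants have a C>T base change. The series text describes both as overexpressing the 5p arm, and each line has wild types of its own, with 2 libraries in each of the 4 groups. Rib cartilage was digested overnight with collagenase and the cells were plated before RNA was taken, and the labels name the cells chondrocytes and no tissue tendon. All 12 chondrocyte markers had reads in every library, with Col2a1, the main cartilage collagen gene, at 24100 to 50200 CPM (counts scaled to a common library size). Nothing in the labels tells whether a group's libraries are separate animals or cultures. The p-values measure only the spread between the libraries at hand, and how much of it is technical is not known. Reads of Ddx3y, a Y-linked gene, numbered 2 and 2511 in CG wild types and 2231 and 2360 in CG mutants. CT wild types had 3669 and 10 such reads, CT mutants 3512 and 30. The libraries of 3 groups thus differed in Y-linked reads, so that within each of these groups they were not repeats from a single animal. Those of the CG mutants did not differ, and the same cannot be said of them. The altered microRNA itself was not measured here.

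Tendon cells arise from progenitors that express the helix-loop-helix transcription factor scleraxis, encoded by Scx. Scleraxis and the homeodomain factor Mohawk, encoded by Mkx, activate genes of the collagen-rich tendon matrix. Tenomodulin, encoded by Tnmd, is a membrane glycoprotein of mature tendon cells. Thrombospondin 4 (Thbs4) and tenascin-C (Tnc) are secreted matrix glycoproteins of tendon that also occur in other tissues, Thbs4 in muscle and Tnc in perichondrium and articular cartilage. Where tendon inserts into skeleton, progenitors express Scx together with Sox9, the transcription factor of chondrocytes.

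The seed of the arm altered in the CG line is shown first, because it is the stretch through which the wild-type arm recognises messenger RNAs. The sequence is from RefSeq (GRCm38.p6, chr8:107551288-107551308, plus strand), with bases 2 to 8, the seed, in capitals.

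mmu-miR-140-3p: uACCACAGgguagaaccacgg

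None of the 5 genes had a 7-base match to this seed in its longest annotated 3′ untranslated region, which was 164 bases long for Thbs4, 175 for Tnmd, 332 for Scx, 651 for Tnc and 2350 for Mkx. Such a match was present in 16.3% of 20693 mouse genes with an annotated region of at least 50 bases. This says only that these letters are not in these annotated regions.

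RefSeq promoter entries for Thbs4, Tnmd and Tnc are shown as a description. For Tnc the more upstream of the overlapping RefSeq entries is given. Each run holds the 250 bases before the start site on the gene's own strand, from GRCm38.p6 (the deposited counts were made on mm9). Capitals mark E-boxes (CANNTG, the general site of helix-loop-helix factors, read on both strands) and the TATA box letters TATAAA. The Tnmd run has neither.

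Thbs4, chr13:92794819-92795068, minus strand: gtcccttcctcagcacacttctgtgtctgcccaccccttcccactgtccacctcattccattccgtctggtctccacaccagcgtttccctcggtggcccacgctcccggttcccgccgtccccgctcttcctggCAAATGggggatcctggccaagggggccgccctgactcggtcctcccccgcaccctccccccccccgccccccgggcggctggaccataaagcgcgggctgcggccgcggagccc

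Tnc, chr4:64047016-64047265, minus strand: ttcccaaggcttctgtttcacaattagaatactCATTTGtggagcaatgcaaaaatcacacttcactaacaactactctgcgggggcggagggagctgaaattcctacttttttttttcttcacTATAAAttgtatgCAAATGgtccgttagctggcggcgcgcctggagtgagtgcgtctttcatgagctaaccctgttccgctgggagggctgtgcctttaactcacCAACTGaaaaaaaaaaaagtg

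Tnmd, chrX:133850758-133851007, plus strand: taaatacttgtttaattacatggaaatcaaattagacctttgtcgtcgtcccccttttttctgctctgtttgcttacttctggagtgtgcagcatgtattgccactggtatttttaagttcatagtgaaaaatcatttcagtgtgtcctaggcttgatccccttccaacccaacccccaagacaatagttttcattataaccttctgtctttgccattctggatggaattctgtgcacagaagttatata

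The Thbs4 run held 1 E-box, 115 bases before the start, and the Tnc run held 3. At least 1 E-box was found in 66.2% of 32851 promoter windows of this length, and at least 3 in 12.2%. The count for Tnc depends on the entry: the overlapping one not shown held 2, and 31.8% of windows held at least 2. The letters TATAAA were found in the Tnc run and in 12.4% of windows. The letters GCGNGGGCG of EGR factors, searched on both strands, were also in the Tnc run, left in lower case, and in 4.7% of windows. A match is a description of the letters, not of binding.

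Levels of the 5 genes ranged widely. On the FPKM scale, which divides by transcript length and allows genes to be set side by side, Tnc averaged 68.2 ± 19.5 (SD over the 8 libraries) and Thbs4 56.9 ± 20.9. Tnmd averaged 7.36 ± 3.04 FPKM, Scx 4.10 ± 0.945 and Mkx 0.819 ± 0.197. The matrix genes thus stood far above both transcription factors. Tnc and Thbs4 lay above 91.7% to 96.6% and 73.3% to 95% of all genes in the table, and Mkx above 33.1% to 40.4%. Mkx rests on 42 to 85 counts per library and Scx on 92 to 185, so counting error is larger for them than for Tnc, with 7911 to 17838 counts.

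**Figure D1:**
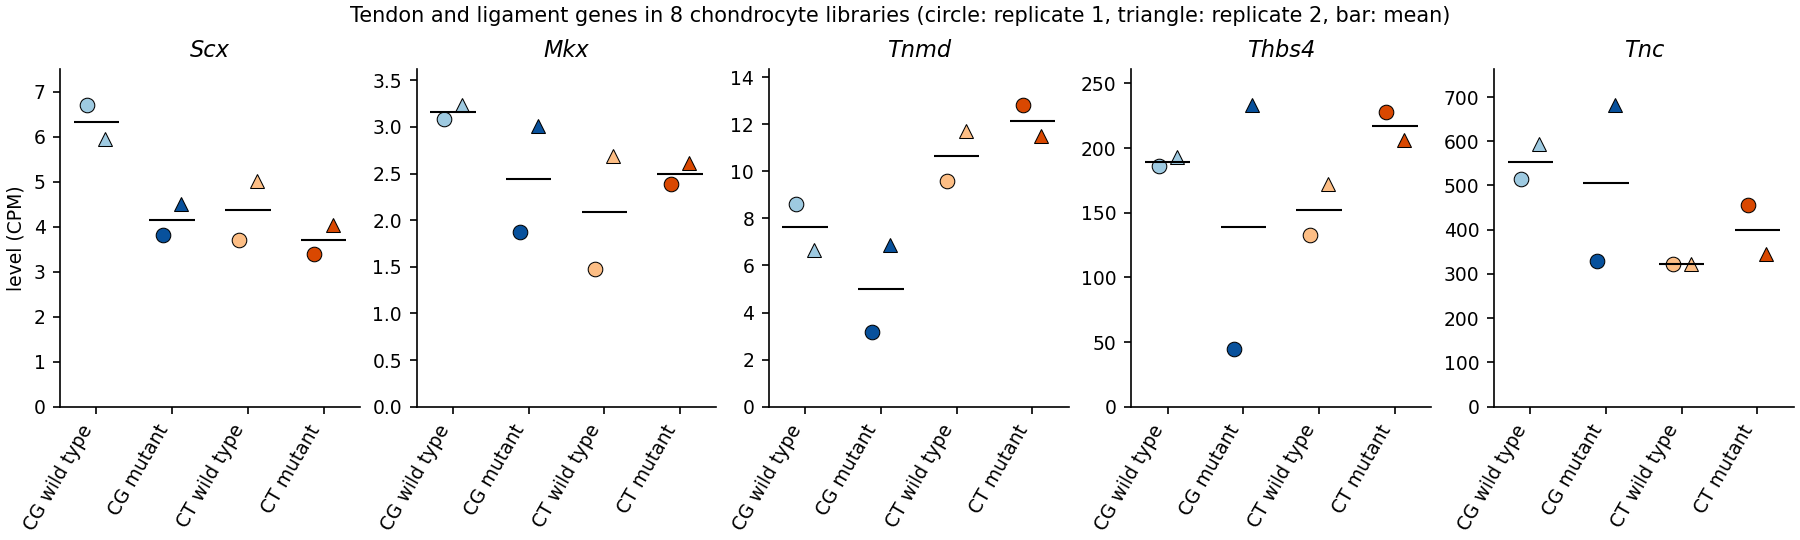
Level of each gene in CPM (vertical axis, from 0) in each of the 8 libraries, by group (horizontal axis), with circles for replicate 1, triangles for replicate 2 and bars for group means. CG mutant replicate 1 lies below the other 3 CG libraries for all 5 genes, and Tnmd is higher in all 4 CT libraries than in all 4 CG libraries.

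The level of Scx was 6.70 and 5.95 CPM in CG wild types, while CG mutants had 3.82 and 4.50 CPM. The CG wild types were thus the highest of all libraries for this gene, and both CG mutants lay below both of them. In the CT line the wild types had 3.70 and 5.03 CPM of Scx and the mutants 3.40 and 4.03 CPM, groups that overlapped. Ordered by mean CPM, the groups ran from CG wild types through CT wild types and CG mutants to CT mutants, and only the first of these steps separated groups that did not overlap.

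For Mkx, CG wild types had 3.08 and 3.23 CPM and CG mutants 1.87 and 3.01 CPM. It stood at 1.48 and 2.69 CPM in CT wild types and at 2.39 and 2.61 CPM in CT mutants. The CG wild types were again above every other library, while the other 3 groups overlapped.

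Tnmd had 8.62 and 6.67 CPM in CG wild types and 3.16 and 6.87 CPM in CG mutants. In the CT line it had 9.59 and 11.7 CPM in wild types and 12.8 and 11.5 CPM in mutants. Its pattern differed from that of the transcription factors: the lines were separate, with the 4 CT libraries above the 4 CG libraries, and the groups within each line overlapped. By group mean the order was CT mutants, CT wild types, CG wild types and CG mutants.

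Thbs4 was at 186 and 193 CPM in CG wild types. In CG mutants it was at 44.4 CPM in replicate 1 and 233 CPM in replicate 2, the lowest and the highest of all 8 libraries. CT wild types had 133 and 172 CPM, and CT mutants 228 and 206 CPM, so that both CT mutants lay above both CT wild types. By group mean the order ran from CT mutants through CG wild types and CT wild types to CG mutants, and only the last step was one between overlapping groups.

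Tnc levels were 515 and 593 CPM for CG wild types, against 329 and 681 CPM for CG mutants. It was at 323 and 322 CPM in CT wild types and at 455 and 345 CPM in CT mutants. By group mean the order ran from CG wild types through CG mutants and CT mutants to CT wild types, and only the last step separated groups without overlap. CG mutant replicate 1, at 329 CPM, was near the CT wild types and far from the other CG libraries.

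CG mutant replicate 1 stood apart. It was the lowest of the 4 CG libraries for 5 of the 5 genes and the lowest of all 8 for Tnmd and Thbs4. The share of all genes that were lowest in this library was not counted, so these counts have no background beside them. The log2 difference between replicates 1 and 2 of the CG mutants was -2.39 for Thbs4, -1.12 for Tnmd, -1.05 for Tnc, -0.68 for Mkx and -0.23 for Scx. The median size of that difference over all genes tested was 0.19. The share of genes with a smaller one was 98.7% for Thbs4, 92.2% for Tnmd, 91.5% for Tnc, 85.1% for Mkx and 57.1% for Scx. Markers of other cell types differed in this library as well, in both directions. Summed over the fixed marker lists, fibroblast markers (all 10 with reads) were at 410 CPM in it, against 1170 CPM in the other CG mutant and 1040 to 1210 CPM in CG wild types. Skeletal muscle markers were at 25.7 CPM, with 10 of 12 detected and Ckm and Myh8 at 0, against 107 CPM and 71.1 to 75 CPM. Myod1, the muscle lineage factor, was at 9.85 CPM against 47.4, 35.8 and 31.1 CPM. Endothelial markers (all 5 with reads) were at 10.9 CPM against 33.2 CPM and 24.2 to 32.3 CPM. The chondrocyte marker sum was higher, at 54900 CPM against 32300 CPM and 33200 to 34400 CPM, with Col2a1 making up 41100 CPM. Not every chondrocyte marker was higher. Matn1, at 18.5 CPM, lay below both wild types, at 20.7 and 22.4 CPM. Hapln1, at 563 CPM, and Snorc, at 75.1 CPM, lay between the wild types. Schwann cell markers (all 4 with reads) were also higher, at 35.6 CPM against 20.7 CPM and 17.2 to 17.3 CPM. S100b made up 31.4 CPM of that sum, while Sox10 was lower, at 1.04 CPM against 1.34, 2.06 and 1.36 CPM. Macrophage and leukocyte markers were at 329 CPM, of which Cd14 made up 317 CPM, against 455 CPM and 471 to 556 CPM. Smooth muscle and pericyte markers were at 243 CPM against 271 CPM and 296 to 311 CPM, although Tagln was higher, at 124 CPM. Osteoblast markers, at 2390 CPM, lay within the range of CG wild types, with Spp1 making up 2350 CPM. Ibsp was at 0.208 CPM against 3.09, 2.1 and 1.92 CPM. Bglap was at 0.457 CPM against 1.45, 1.45 and 1.96 CPM. Alpl was at 3.57 CPM against 14.3, 9.63 and 7.9 CPM. Runx2 was also lower, while Sp7, at 5.73 CPM, lay above both wild types. The part of these cells in the levels of the 5 genes was not tested. In bulk RNA, fewer cells of a type and less RNA per cell cannot be told apart.

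The first comparison asks what the altered 3p seed region changed in the CG line. Each of the 5 genes had a log2 fold change below 0 in CG mutants, while 50.6% of all genes lay above 0. The median of the 5 was -0.45 against 0 over all genes, and none of the 5 passed edgeR's test. A single gene passed downward among all those tested, 0.00696%, and 0% passed upward. Scx, the tendon lineage factor, had the smallest p, at -0.60 ± 0.22 (SE, 2 against 2 libraries), a ratio of 0.659, with an unadjusted p of 0.027 and an adjusted p of 0.376. It was the only one of the 5 with an unadjusted p under 0.05, as were 11.4% of all genes. DESeq2 and limma on FPKM values also called none. Mkx was at -0.37 ± 0.34 (adjusted p = 0.711), Tnmd at -0.60 ± 0.33 (0.528), Thbs4 at -0.45 ± 0.58 (0.79) and Tnc at -0.13 ± 0.29 (0.886). Scx and Mkx were lower in both CG mutants than in both wild types, 2 of 5 genes, as were 22.5% of all genes, and none of the 5 was higher in both, as were 23.2%.

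These values turned on 1 library. Without CG mutant replicate 1 Scx was at -0.49 (adjusted p = 0.935), Mkx at -0.07, Tnmd at -0.16, and Thbs4 and Tnc changed sign, both to 0.30. Without CG mutant replicate 2 Thbs4 was at -2.09 and Tnmd at -1.27, and both passed, with edgeR adjusted p-values of 0.00287 and 0.0374. In those fits the lone CG mutant is assumed to vary like the other groups. Scx moved least of the 5, between -0.49 and -0.72 over all single libraries left out.

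**Figure D2:**
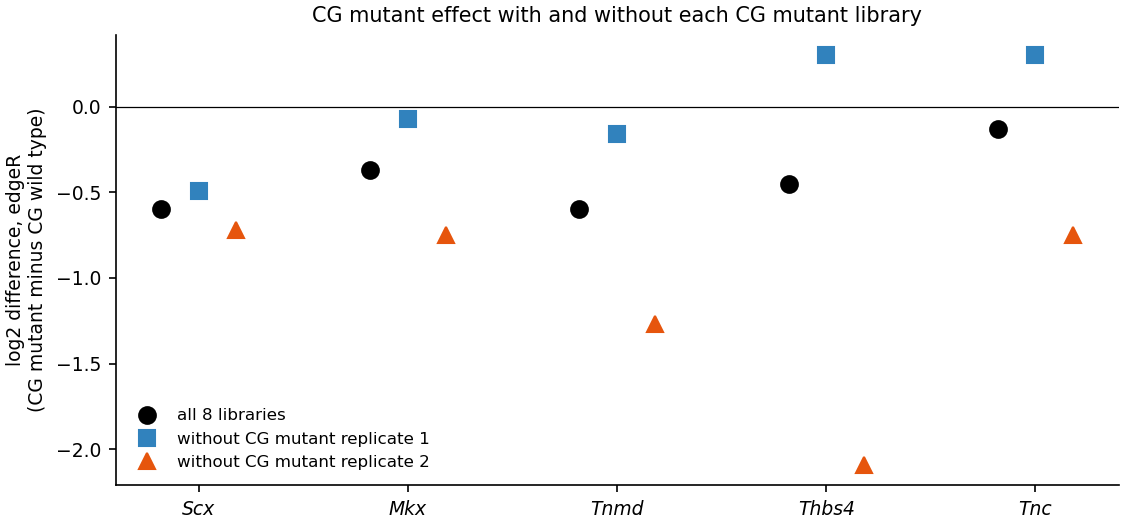
Log2 difference between CG mutants and CG wild types from edgeR (vertical axis) for each gene, from all 8 libraries (circles), without CG mutant replicate 1 (squares) and without CG mutant replicate 2 (triangles). Thbs4 runs from 0.30 to -2.09 with the library left out, while Scx stays between -0.49 and -0.72.

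For the C>T change the question is the same, against the wild types of its own line. No member passed in the CT line by edgeR, none had an unadjusted p under 0.05, as did 5.11% of all genes, and DESeq2 and limma called none. Among all genes tested 0.00696% passed upward and 0% downward. Both matrix genes had positive estimates, Thbs4 at 0.51 ± 0.58 (SE, adjusted p = 0.984), or 1.42-fold, and Tnc at 0.31 ± 0.30 (0.976), or 1.24-fold. Both lay higher in both CT mutants than in both wild types, 2 of 5 genes, as did 17.2% of all genes, and none was lower in both, as were 16.3%. Mkx was at 0.26 ± 0.34, Tnmd at 0.19 ± 0.31 and Scx at -0.23 ± 0.22. Without CT wild type replicate 1 the Mkx estimate was -0.11. Endothelial markers ran from 52.5 to 98.1 CPM and fibroblast markers from 2240 to 3090 CPM in this line, and the groups overlapped for both. The sums of other lists separated the groups. Chondrocyte markers were at 41800 to 42500 CPM in CT mutants against 51600 to 62600 CPM in CT wild types. Much of those sums was Col2a1, at 31600 and 30900 against 50200 and 40600 CPM. Single chondrocyte markers went both ways, 5 of 12 above 0, with Ucma at 0.82 ± 0.29 and Cytl1 at 0.83 ± 0.44, and none passed. Smooth muscle and pericyte markers (all 6 with reads) were at 117 to 136 against 95.4 to 112 CPM, with 4 of 6 above 0. Of 8 macrophage and leukocyte markers 1 lay above 0, Cd14 at 0.27 ± 0.16, which made up most of the sum of that list. An unadjusted edgeR p under 0.05 was found for 3 of the 8, among them Ptprc at -1.24 ± 0.44 and Fcer1g at -0.97 ± 0.37. None of the 8 passed. The part of these markers in the Thbs4 and Tnc values was not tested.

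The difference between the mutant effects, CT minus CG, lay above 0 for all 5 genes, as for 48.4% of all genes, and none passed. All 5 values draw on CG mutant replicate 1, the lowest CG library for each of these genes, so the shared sign is not 5 separate observations. The values were 0.37 ± 0.32 for Scx, 0.62 ± 0.49 for Mkx, 0.80 ± 0.45 for Tnmd, 0.96 ± 0.82 for Thbs4 and 0.44 ± 0.42 for Tnc, with edgeR adjusted p-values from 0.967 to 0.968 and none under 0.05 unadjusted, as were 4.78% of all genes. Among all genes 0.0139% passed upward and 0.00696% downward. Without CG mutant replicate 2 the Thbs4 difference was 2.59 with an adjusted p of 0.00827, so this call, too, turned on a single library. For the mean of the effects, Scx was at -0.42 ± 0.16 (unadjusted p = 0.0293, adjusted p = 0.387) and the other 4 lay between -0.21 and 0.09. None of the 5 passed, as for all genes tested, 0% in either direction, and Scx was again the 1 member with an unadjusted p under 0.05, as were 11.5% of all genes.

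**Figure D3:**
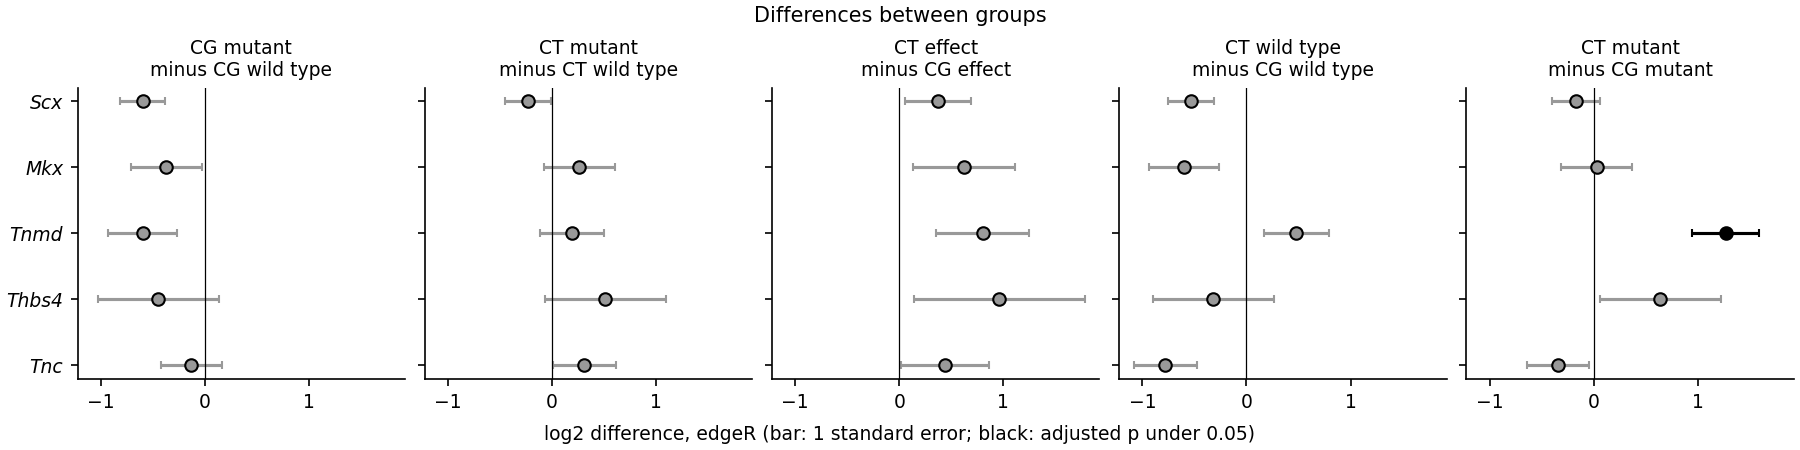
Log2 differences from edgeR (horizontal axis) with 1 standard error for each gene in 5 comparisons, black where the adjusted p is under 0.05 and grey otherwise. Only Tnmd between the mutants of the lines passes, at 1.27.

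The lines were also set against each other, since each line brought its own wild types. Line, litter and handling cannot be told apart in this design, and these comparisons reuse the libraries of the mutant comparisons. Between the wild types none of the 5 genes passed by edgeR, although 17% of all genes passed as higher and 16.8% as lower in the CT line, and DESeq2 called none of them. Tnc, at -0.78 ± 0.30 (SE) or 0.582 times the CG level, had an unadjusted p of 0.0301 and an adjusted p of 0.0761. Scx was at -0.53 ± 0.22 (0.0422 and 0.0974). These were the 2 members of 5 with an unadjusted p under 0.05, as were 45.1% of all genes. Mkx was at -0.60 ± 0.34, Thbs4 at -0.32 ± 0.58 and Tnmd, in the other direction, at 0.48 ± 0.31. Both CT wild types lay below both CG wild types for 4 of the 5 genes, as for 35.5% of all genes, and above them for Tnmd, as for 35.7%. Markers of other cell types were also apart between the wild types. Chondrocyte markers were at 51600 to 62600 CPM in the CT line against 33200 to 34400 CPM, and fibroblast markers at 2850 to 3090 against 1040 to 1210 CPM. Skeletal muscle markers were at 22.6 to 26.3 CPM in the CT line, with Myf5 and Myh8 at 0 in replicate 1, against 71.1 to 75 CPM. Of 9 tested genes of that list 4 passed as lower by edgeR and 1 as higher, Tnnt3 at 2.54 ± 0.56 (adjusted p = 0.0116). Smooth muscle and pericyte markers were at 95.4 to 112 against 296 to 311 CPM. Endothelial markers were at 52.5 to 98.1 against 24.2 to 32.3 CPM, with 3 of 5 passing as higher. Their part in the values of the 5 genes was not tested.

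The call for Tnc between the wild types depended on the libraries that set the spread. Its fold change stayed at -0.78 while its edgeR adjusted p was 0.00217 with the 4 wild-type libraries alone, 0.00467 without CG mutant replicate 1 and 0.00461 without CG mutant replicate 2. Leaving out any of the other 6 libraries left it between 0.0928 and 0.253, with fold changes from -0.88 to -0.67. Fitted with the replicate block it was at -0.79 with an adjusted p of 0.0333.

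Between the mutants of the lines, Tnmd was higher in the CT line by 1.27 ± 0.32 (SE, edgeR adjusted p = 0.0176), or 2.42-fold. Its levels were 12.8 and 11.5 CPM against 3.16 and 6.87 CPM. It was 1 of 5 genes called, while 17.9% of all genes were called higher and 18.2% lower. It was also the 1 gene with both CT mutants above both CG mutants, as were 35.5% of all genes, and none of the 5 lay wholly below, as did 35.6%. DESeq2 gave 1.28 with an adjusted p of 0.000556. The authors' deposited table, which holds Tnmd but not the other 4, gives a log2 ratio of 1.29 with a q-value of 0.00619 for this comparison, and 0.48 with 0.194 for the wild types.

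That difference was smaller without CG mutant replicate 1, at 0.82, and still passed, with an adjusted p of 0.0341. It did not pass without CT mutant replicate 1 (1.20, adjusted p = 0.0796), without CT mutant replicate 2 (1.34, 0.0571) or with the 4 mutant libraries alone (1.27, 0.0522). Tnmd is X-linked, and with a term for Ddx3y reads the value was 1.20 with an adjusted p of 0.0423. The step between the mutants was not shown to differ from that between the wild types, the difference of 0.80 ± 0.45 given above being the test of it. Fibroblast markers were at 2240 to 2970 CPM in CT mutants and 410 to 1170 CPM in CG mutants, all 10 having reads, and endothelial markers at 61.2 to 88.7 against 10.9 to 33.2 CPM. Within the fibroblast list 3 genes passed as higher and 2 as lower, among them Col1a1 at 2.27 and Pi16, a marker of adventitial fibroblasts, at -3.33 ± 0.69 (adjusted p = 0.00808). Other lists were lower in CT mutants: smooth muscle and pericyte markers were at 117 to 136 against 243 to 271 CPM, skeletal muscle markers at 22.3 to 24.9 against 25.7 to 107 CPM, and Schwann cell markers at 10.1 to 11.4 against 20.7 to 35.6 CPM. Their part in the Tnmd difference was not tested.

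Thbs4 between the mutants was at 0.64 ± 0.58 (adjusted p = 0.415), Tnc at -0.34 ± 0.30 (0.403), Scx at -0.17 ± 0.23 (0.595) and Mkx at 0.03 ± 0.34 (0.957). Without CG mutant replicate 1 Thbs4 turned to -0.11 and Tnc passed, at -0.77 with an edgeR adjusted p of 0.0139. Without CG mutant replicate 2 Thbs4 passed at 2.28 (adjusted p = 0.000204) and Tnc turned to 0.27. Scx and Tnc were at 0.09 and 0.01 by limma on log2(FPKM + 1).

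Relatives of the 5 genes were measured beside them. Among thrombospondins, the secreted family that binds collagens and cell surfaces, Comp averaged 262 FPKM and Thbs1 198 FPKM, above Thbs4. Thbs3 was at 15 and Thbs2 at 4.45 FPKM. None of these 4 relatives passed in the CG or CT line by edgeR or DESeq2. Of them 1 and 2 had an unadjusted p under 0.05, as had 11.4% and 5.11% of all genes. Comp, a matrix protein of both cartilage and tendon, was higher in CT than in CG wild types by 2.21 ± 0.13 (adjusted p = 0.000124), and Thbs3 by 1.45 ± 0.11 (0.000191). The same 2 genes passed between the mutants, at 1.78 ± 0.13 (0.000213) and 1.34 ± 0.11 (0.000271). These were 2 of 4 relatives in each comparison, beside 17% of all genes higher between the wild types and 17.9% between the mutants. Thbs4 did not pass in either.

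Of the other tenascins, Tnn averaged 5.08 and Tnxb 1.14 FPKM, and Tnr was listed at 0 to 0.01 FPKM. Tnn, which encodes tenascin-W, was higher in the CT line by 2.05 ± 0.36 between wild types (adjusted p = 0.0047) and by 2.50 ± 0.37 between mutants (0.00196). The Tnc estimates in those comparisons, which did not pass, were of the other sign, at -0.78 and -0.34. Of 10 tested genes of other tenascins and tenascin-C receptors, 1 passed as higher and 3 as lower between the wild types. Between the mutants 1 and 2 did. The shares of all genes were 17% and 16.8% between the wild types, and 17.9% and 18.2% between the mutants. In the CG and CT lines 0 passed by edgeR. Beside 11.4% and 5.11% of all genes, 3 and 4 of the 10 had an unadjusted p under 0.05. DESeq2 called 1 of them, the syndecan gene Sdc4 in the CG line, which edgeR put at -0.51 ± 0.15 in both lines (adjusted p = 0.289 and 0.958). Between the wild types, the lower gene with the smallest p was Egfr, the epidermal growth factor receptor, at -0.92 ± 0.18 (adjusted p = 0.00748). Next came the integrin subunit gene Itgav, at -0.54 ± 0.11 (0.00767).

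Cnmd, which encodes the cartilage protein chondromodulin and is the homologue of Tnmd, averaged 263 FPKM, far above Tnmd. It passed between the wild types, at 0.48 ± 0.15 (adjusted p = 0.0418), the same size as the Tnmd value, which did not. Between the mutants Cnmd was at -0.04 ± 0.15 (0.852). In the CG line it stood at 0.44 ± 0.15 (0.356), on the other side of 0 from Tnmd. Of the Iroquois homeobox genes, to which Mkx is related, Irx3 averaged 25.9 FPKM and Irx5 2.94 FPKM, both above Mkx. They were at -0.98 ± 0.20 (0.188) and -1.30 ± 0.30 (0.24) in the CG line and did not pass by edgeR, while DESeq2 called both. Between the wild types Irx5 passed, at -0.90 ± 0.29 (0.0455), 1 of 4 tested, where 16.8% of all genes passed as lower. Between the mutants Irx1 passed by edgeR, at 2.15 ± 0.55 (0.019), and not by DESeq2. There 17.9% of all genes passed as higher by edgeR. Irx1 was listed at 0.41 and 0.28 FPKM in CT mutants and at 0.04 and 0.09 FPKM in CG mutants.

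**Figure D4:**
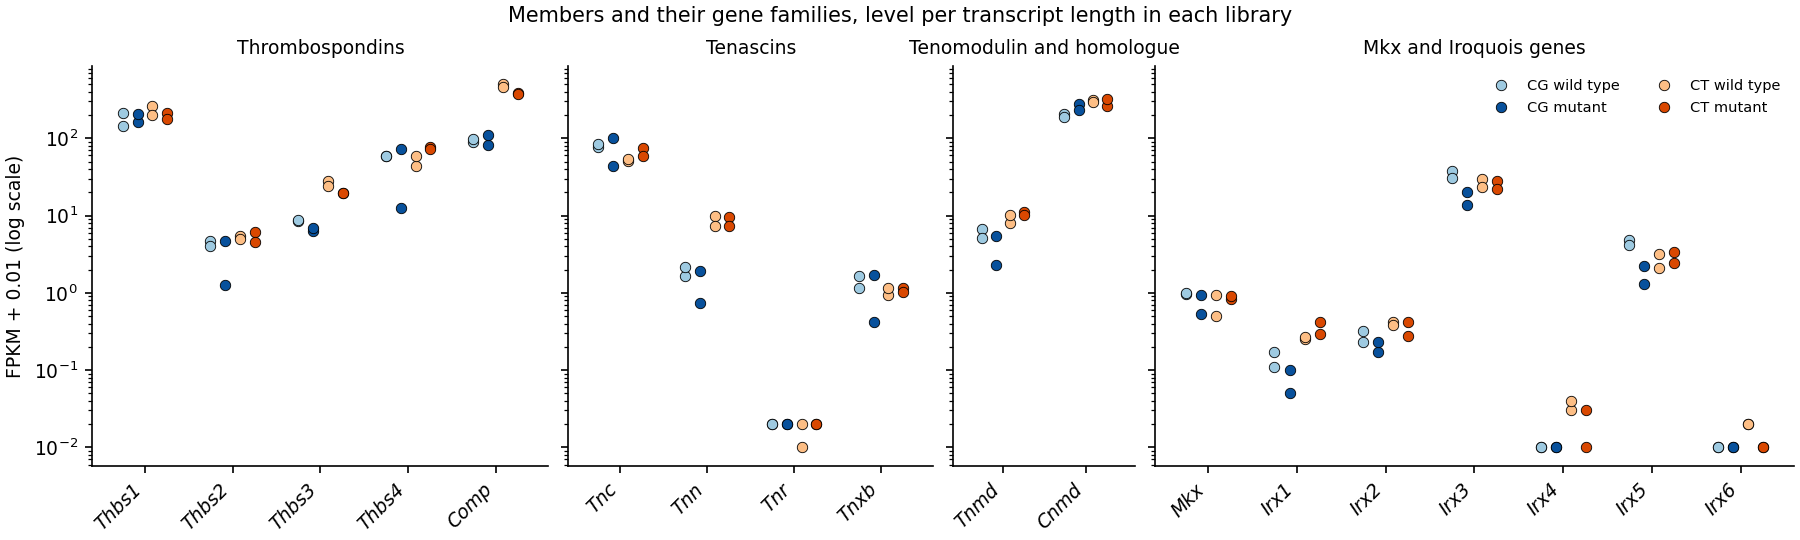
Deposited FPKM plus 0.01 on a log axis (vertical) for each gene and its family (horizontal), 1 point per library, coloured by group. Comp, Thbs3 and Tnn are higher in the CT libraries, while Tnc, Thbs4 and Mkx overlap between lines, and Tnmd lies below Cnmd in each library.

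Transcription factor genes of the tendon lineage did not pass in the CG or CT line by edgeR or DESeq2. Of 11 tested, 1 and 2 had an unadjusted p under 0.05, as had 11.4% and 5.11% of all genes. In the CG line 1 of the 11 lay above 0, as did 50.6% of all genes, and the median was -0.24. CG mutant replicate 1 was the lower of the mutants for several of them, of which Eya1 and Nfatc4 were picked after their values were seen. Eya1 was at 0.10 FPKM in it and 0.63 FPKM in replicate 2, with wild types at 0.61 and 0.71, and Nfatc4 at 0.52 and 1.28 FPKM, with wild types at 0.81 and 1.03. The gene above 0 was Creb3l1, a regulator of collagen secretion, at 0.35 ± 0.11 (adjusted p = 0.309). Creb3l1 was at -0.44 ± 0.11 (0.958) in the CT line. Between the wild types, and again between the mutants, 1 passed as higher and 2 as lower. The shares of all genes were 17% and 16.8% for the wild types, and 17.9% and 18.2% for the mutants. Egr1, a zinc finger factor that responds to mechanical load, was higher in CT wild types by 1.73 ± 0.17 (0.000547). Klf4 was lower, at -1.66 ± 0.15 (0.000356), and so was Creb3l1, at -0.84 ± 0.11 (0.00143).

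Of 14 tested genes of signals that induce tendon, 0 passed in the CG or CT line by edgeR. Beside 11.4% and 5.11% of all genes, 5 and 1 of the 14 had an unadjusted p under 0.05. DESeq2 called 1 of them, Tgfb1 in the CG line. Tgfb1, the transforming growth factor gene, had 0.57 ± 0.11 in the CG line (adjusted p = 0.181). Spry1, a feedback inhibitor of fibroblast growth factor signals, had -0.52 ± 0.17 (0.33). Between the wild types 2 passed as higher and 3 as lower, among them the joint gene Gdf5 at -1.75 ± 0.15 (0.000277) and the receptor gene Tgfbr2 at 0.66 ± 0.14 (0.0109). Between the mutants 5 passed as higher and 4 as lower. Of all genes, 17% and 16.8% passed between the wild types, and 17.9% and 18.2% between the mutants.

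Of 32 tendon matrix genes, 0 passed in the CG or CT line by edgeR. Beside 11.4% and 5.11% of all genes, 8 and 0 of the 32 had an unadjusted p under 0.05. In the CG line 13 lay above 0, and the median was -0.13. The smallest p-values were those of Cilp2 at -1.19 ± 0.27 (adjusted p = 0.237) and Ecm2 at -0.98 ± 0.24 (0.251), and upward those of Fbn1, which encodes fibrillin-1, at 0.60 ± 0.16 (0.276) and Prelp at 0.72 ± 0.23 (0.326). DESeq2 called these 4 genes in the CG line and none of the list in the CT line. Between the wild types 5 passed as higher and 8 as lower in the CT line. Ogn, a small leucine-rich proteoglycan gene, was higher by 1.65 ± 0.29 (0.00484) and Bgn, which encodes biglycan, by 0.83 ± 0.16 (0.00724). Dcn, which encodes the collagen-binding proteoglycan decorin, was lower, at -2.23 ± 0.19 (0.000277), as was the lubricin gene Prg4, at -2.63 ± 0.28 (0.000693). Col1a1, the main tendon collagen gene, was higher in CT than in CG mutants by 2.27 ± 0.44 (0.00596). Between the mutants 9 passed as higher and 10 as lower. Over all genes the shares were 17% and 16.8% between the wild types and 17.9% and 18.2% between the mutants. Col1a1, Col1a2 and Col3a1 are on the fibroblast marker list as well, where Pi16 and Pdgfrb passed as lower in the CT line, at -3.67 ± 0.69 (0.00611) and -0.65 ± 0.17 (0.021) between the wild types.

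The 5 genes did not share a single profile. The closeness of 2 genes was measured as the root mean square difference of their log2 CPM over the 8 libraries, each centred on its own mean. Scx and Mkx were the closest pair of members, at 0.26, followed by Mkx and Tnc at 0.30. Tnmd and Tnc were the farthest, at 0.76, and Tnmd was nearest to Thbs4, at 0.45. Among 11159 named genes, those nearest to Thbs4 were F2r, the thrombin receptor gene, at 0.17, Vash2 at 0.19 and Heph at 0.25, against a median of 0.78. Nearest to Tnmd were Sema3f at 0.16, Stard9 at 0.17 and Aspn, a small leucine-rich proteoglycan gene of tendon and periodontal ligament, at 0.17, against a median of 0.64. Tnc was nearest to Cdh23 at 0.14, Tnfrsf25 at 0.16 and Aqp1 at 0.16, against 0.47. Scx was nearest to Thsd1 and Chst2 at 0.12 and Ltbp4 at 0.13, against 0.40, and Mkx to Slc27a1 at 0.17 and Rtl8a and Dnase2a at 0.18, against 0.43. A gene at one constant level would lie 0.32 from Scx, 0.36 from Mkx, 0.41 from Tnc, 0.61 from Tnmd and 0.73 from Thbs4. All profiles share the same libraries.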

How the data were processed

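The authors deposited one table with a read count and an FPKM value per gene for each of the 8 libraries. HISAT2 2.0.4 and mm9 are named, per the submitters' processing notes, while the sources used here name no counting tool. The deposited values are estimated counts without normalization. Between 2282 and 2518 of them in a library were not whole, and all were rounded. FPKM values, per the file headers, are scaled to length and depth by the authors. For 2655 genes the authors' deposited table of comparisons lists log2 ratios and q-values, tool not stated. A deposited table with 3 of the libraries was not used. Symbols of 24 genes that had turned into dates were restored from Entrez IDs. Total counts ran from 26536868 to 28678641, and libraries of a group differed by more than sampling noise (chi-square per degree of freedom 19.3 to 54.3).

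One edgeR 4.0.16 quasi-likelihood model (R 4.3.3) was fitted to all 8 libraries with a mean for each of the 4 groups, TMM factors and the default filter on low counts, leaving 4 residual degrees of freedom. Benjamini-Hochberg adjustment ran over 14359 genes, with a threshold of 0.05. A standard error is the size of the log2 fold change over the square root of F. CPM use TMM-adjusted library sizes, with 0.5 added to counts for log2 profiles. The model was tested on simulated data. Alternatives were DESeq2 1.42.0, limma 3.58.1 on log2 of FPKM plus 1 or 0.1 (mean FPKM of at least 1, which drops Mkx, or no filter), other factors, terms and libraries.

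The members and gene lists were chosen with earlier results of these data known. All 5 members are named in each comparison. From each list at most the 2 genes with the smallest p in each direction are named, and for each member the 3 nearest profiles among genes averaging at least 1 log2 CPM. Seed matches used GENCODE M21 on GRCm38, and promoters and the microRNA are from RefSeq tables. The 5p arm and the Scx and Mkx promoters are not analysed here.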

Additional observations from a re-analysis of the deposited data

How the results depend on the processing

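Each of the 30 member results (5 genes in 6 comparisons) was recomputed under up to 19 alternatives, and 507 of 548 values kept direction and side of the threshold. For 14 of the 30 results all of them did. DESeq2, its size factors or upper-quartile factors in edgeR, no filter on low counts, and leaving out either CG wild type changed no direction and no call of a member. Using only the libraries compared gives no separate fit for the mean effect and the difference of effects, which need all groups, and limma with a filter gives no value for Mkx.

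Without CG mutant replicate 2, 2 members were called in the CG effect and 1 each in the mean effect, the difference of effects and the wild types, and without CG mutant replicate 1 also 1 in the wild types. Between the mutants 2 were called without either CG mutant and 0 without either CT mutant. Over single libraries left out the counts thus ran from 0 to 2 in the CG effect and the mutants and from 0 to 1 in the other 3. With only the libraries compared, 1 was called between the wild types and 0 between the mutants.

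With single libraries left out, log2 values of these results changed sign. In the CG effect Thbs4 ran from -2.09 to 0.30 and Tnc from -0.75 to 0.30. In the CT effect Scx ran from -0.44 to 0 and Mkx from -0.11 to 0.75. In the mean effect Mkx ran from -0.25 to 0.19, Tnmd from -0.54 to 0.02, Thbs4 from -0.79 to 0.40 and Tnc from -0.22 to 0.30, and Thbs4 passed at -0.79. Between the mutants Mkx ran from -0.28 to 0.41, Thbs4 from -0.11 to 2.28 and Tnc from -0.77 to 0.27. Of other settings, limma on log2(FPKM + 1), with or without a filter, gave -0.18 for Thbs4 in the mean effect, and 0.09 for Scx and 0.01 for Tnc between the mutants. With 0.1 added these were -0.20, 0.12 and 0.01. A term for Ddx3y reads gave 0.03 for Mkx in the mean effect and -0.12 between the mutants. The replicate block, with either pairing, gave -0.18 for Thbs4 in the mean effect. Apart from the libraries left out, the cause was not tested.

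Over all genes, edgeR called 1 in the CG effect, 1 in the CT effect, 0 in the mean effect and 3 in the difference, against 213, 20, 206 and 38 by DESeq2, and 522, 1, 319 and 97 by edgeR without CG mutant replicate 2. Without a filter edgeR called 13 in the CG effect. Between the wild types 4843 genes were called, and 2137 to 5324 with a library left out. Between the mutants 5184 were called, and 2908 to 5210 with a library left out.

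Same-numbered libraries had deviations with a correlation across 11160 genes of -0.142 in the CG line and 0.433 in the CT line, and the labels do not say what a number marks, so the numbers were not taken as pairs. With the replicate block 1 member, Tnc, was called between the wild types, no other call of a member changed, and 4 genes were called in the CT effect, 5 in the mean effect and 6 in the difference. A block with crossed CG numbers, added after seeing the data, called 2 genes in each of the CG effect, the CT effect, the mean effect and the difference, 5423 between the wild types and 5802 between the mutants, with Tnmd between the mutants as the only member called. The low counts of Mkx and Scx, and 2 libraries a group, limit what can be seen.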
